A study of Mus musculus with 21 samples.

Results

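The comparison set mouse 3C cultures kept with dorsomorphin against 3C cultures kept with cyclopamine, each for 48 h, over every locus that the authors' table marks as tested. These were 11505 of the 43945 distinct loci of that table, and the repeated rows of a locus were counted once. The 2 groups had 3 libraries each, 6 of the 21 libraries of the series. A 3C culture was started from total epidermal cells and grown for 10 to 14 days, in conditions meant for hair follicle stem cells (HFSCs), and the inhibitor was added to the medium. The labels give the cells of both groups as keratinocytes of epidermis and give no genotype, age, dose or solvent for them. Both groups received an inhibitor, and the table holds no untreated culture, so a difference between them cannot be assigned to either drug. The submitters state the purpose of this pair as the search for early changes of expression that precede the loss of HFSCs with dorsomorphin and their gain with cyclopamine.

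Bone morphogenetic proteins (BMPs) are secreted ligands that bind paired type I and type II receptor kinases, which phosphorylate SMAD proteins, and the Id genes are among the most direct SMAD targets. In the hair follicle, BMP signalling is known for keeping bulge stem cells at rest and for promoting hair and epidermal differentiation. Dorsomorphin inhibits the BMP type I receptor kinases and also AMP-activated protein kinase (AMPK). Hedgehog ligands bind Ptch1, which releases Smoothened (Smo) and so activates the Gli transcription factors. Cyclopamine binds and inhibits Smo.

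Expression was given as 1 FPKM value (fragments scaled to the length of the transcript and to the fragments mapped in the library) per locus and drug, so each level below is the authors' value over 3 libraries and has no SD. Calls of higher or lower rest on an adjusted p under 0.05 in the authors' deposited table, the source of all p-values below. The labels do not say that the 3 libraries of a group came from separate cultures or animals, so what spread these p-values cover, technical or biological, is not known. The read depth behind the values is unknown too. The RNA came from whole cultures, so fewer cells of a type and less RNA per cell cannot be told apart for any gene below. Unless said otherwise, the value with cyclopamine is given first and that with dorsomorphin after it.

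Of the 11505 tested loci, 296 (2.57%) were called, 145 (1.26%) higher and 151 (1.31%) lower with dorsomorphin. Of the called loci, 87 differed by at least 2-fold, 32 of them higher and 55 lower. The median called difference was 0.77 on the log2 scale and the smallest was 0.41. The median log2 fold of all tested loci was -0.02, and the summed FPKM of the tested loci was 502089 with cyclopamine and 493168 with dorsomorphin. The share of loci called rose with level, from 1.24% of loci under 5 FPKM to 6.18% of loci over 100 FPKM. The gene lists below were chosen with earlier results of these data known. Their shares stand beside those of all tested loci as a description, without matching for level and without a test. A further 65 loci differed by 4-fold or more without being called. The labelled cell type could be checked on the keratinocyte genes: with cyclopamine and dorsomorphin, Krt14 was at 4489 and 4484 FPKM, Krt5 at 3619 and 4022 and Trp63 at 301 and 308, and none of them passed the test. Some markers of other cells were near the bottom of the scale. Col1a1 was at 0.0939 and 0.119 FPKM, Ptprc at 0 and 0.0409, and Cdh5, Sox10 and Krt20 were listed at 0 in both groups. Other genes listed for such cells stood higher, among them Gpnmb at 185 and 92.4 FPKM, H2-Ab1 at 9.65 and 17.9, and Vim. These picked genes therefore do not measure the part of other cells.

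**Figure D1:**
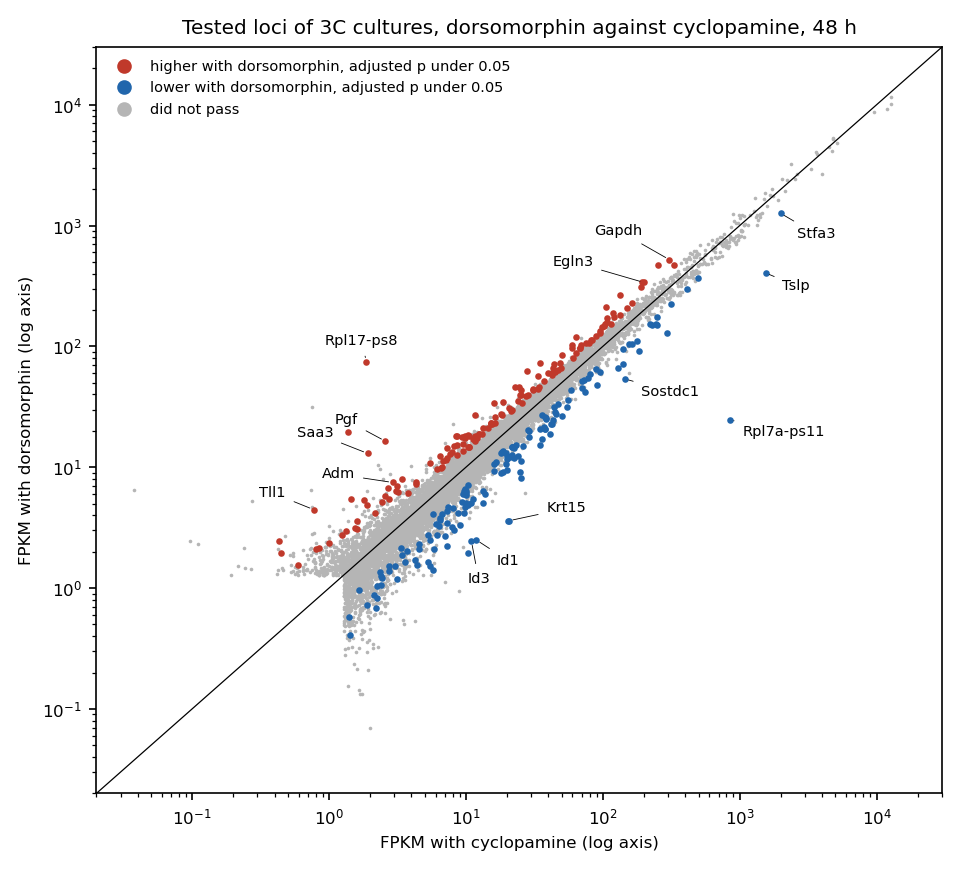
FPKM of each tested locus with cyclopamine (horizontal, log axis) and dorsomorphin (vertical, log axis). The 145 loci called higher are in red, those called lower in blue and the line of equal levels in black. The 15 loci with 0 FPKM in a drug are left out, among them 1 of the 151 called lower. Krt15, Id1, Id3, Tslp and Sostdc1 lie below the line and Pgf, Saa3, Tll1 and Adm above it.

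The Id genes, direct BMP targets, were lower with dorsomorphin. Id1, Id2 and Id3 encode helix-loop-helix proteins that lack a DNA-binding region and block the binding of their partners. Id1 was at 11.9 FPKM with cyclopamine and 2.50 with dorsomorphin, a 4.76-fold lower level (adjusted p = 0.00479). Id3 went from 10.96 to 2.44 FPKM, 4.49-fold lower (adjusted p = 0.00479). Id2 was at 4.24 and 1.72 FPKM, 2.46-fold lower (adjusted p = 0.0417). All 3 thus fell, and Id1 and Id3, on different chromosomes, fell by nearly the same factor. Of the 15 BMP targets listed, 7 were tested, 3 were lower and none was higher (42.9% of the tested ones lower, against 1.31% of all tested loci). The inhibitory SMAD gene Smad7 was at 2.89 and 3.08 FPKM and the homeobox genes Msx2 and Dlx3 at 5.19 and 4.18 and at 5.51 and 5.36, and these did not pass. Id4 (0.803 and 0.254 FPKM), Smad6 (0.622 and 0.354) and Atoh8 (0.32 and 0) were too low to be tested.

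GGCGCC is a short sequence bound by SMAD proteins in Id gene promoters. It was searched on both strands in the 250 bases before the gene start, in promoter sequences from RefSeq (GRCm38.p6) that matched 7836 of the tested genes. The Id2 promoter is shown because it holds the motif, in capitals, beginning 231 bases before the start (chr12:25096093-25096342, minus strand).
Id2: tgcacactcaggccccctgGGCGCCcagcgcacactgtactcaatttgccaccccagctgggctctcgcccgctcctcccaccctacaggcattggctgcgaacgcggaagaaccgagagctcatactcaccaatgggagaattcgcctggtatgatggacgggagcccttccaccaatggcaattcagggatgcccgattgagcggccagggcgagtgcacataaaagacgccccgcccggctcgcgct
The Id3 window (chr4:136143572-136143821, plus strand) did not hold these letters. No promoter sequence was available for Id1, so Id1 was not searched. GGCGCC stood in 17.4% of all matched promoters, in 13.9% of those of loci higher with dorsomorphin and in 14.0% of those of loci lower, so its share was lower among the called loci than over all. A match describes the letters and is not a measured binding site.

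Among BMP ligands and secreted antagonists, 12 of 26 listed genes were tested, and 1 was higher and 1 lower. Sostdc1, an antagonist of BMP and Wnt signals that is made in the follicle, fell from 144 to 53.8 FPKM, 2.68-fold (adjusted p = 0.00479). Bmp3, a ligand that opposes other BMPs, rose from 3.17 to 6.24 FPKM, 1.97-fold (adjusted p = 0.00479). The other tested members did not pass: the antagonists Grem1 and Fst were at 9.31 and 7.57 and at 13.4 and 14.7 FPKM, and the ligands Bmp2 and Bmp7 at 2.81 and 3.45 and at 2.51 and 3.71. Of these 12 genes, 9 had folds above 0, against 47.0% of all tested loci.

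None of the 18 tested genes for BMP receptors and SMADs was called. The type I receptor genes Bmpr1a and Bmpr1b, whose kinases dorsomorphin inhibits, were at 49.7 and 62.9 FPKM (adjusted p = 0.146) and at 4.70 and 6.60 FPKM (adjusted p = 0.0928). The type II receptor gene Bmpr2 was at 61.6 and 67.1 FPKM, and the signal transducers Smad1 and Smad5 at 24.8 and 29.4 and at 29.4 and 30.4. The 3 Id genes were thus called, and no tested receptor or SMAD gene was.

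None of the 10 tested Hedgehog genes was called. Smo, the protein that cyclopamine inhibits, was at 32.0 FPKM with cyclopamine and 36.1 with dorsomorphin (adjusted p = 0.645). The receptor Ptch1, which is itself a target of the pathway, was at 7.47 and 7.20 FPKM (adjusted p = 0.954). The transcription factors Gli2 and Gli3 were at 2.86 and 2.02 and at 13.9 and 14.8 FPKM, and the cyclin Ccnd1 at 75.2 and 94.2. The targets most often read for this pathway were hardly detected in either group: Gli1 was at 0.0763 and 0.0315 FPKM and Hhip at 0.0672 and 0.0491, neither of them tested. The motif GACCACCCA, which Gli proteins bind, stood in 15 of the 7836 promoters and in none of the 208 promoters of called loci.

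**Figure D2:**
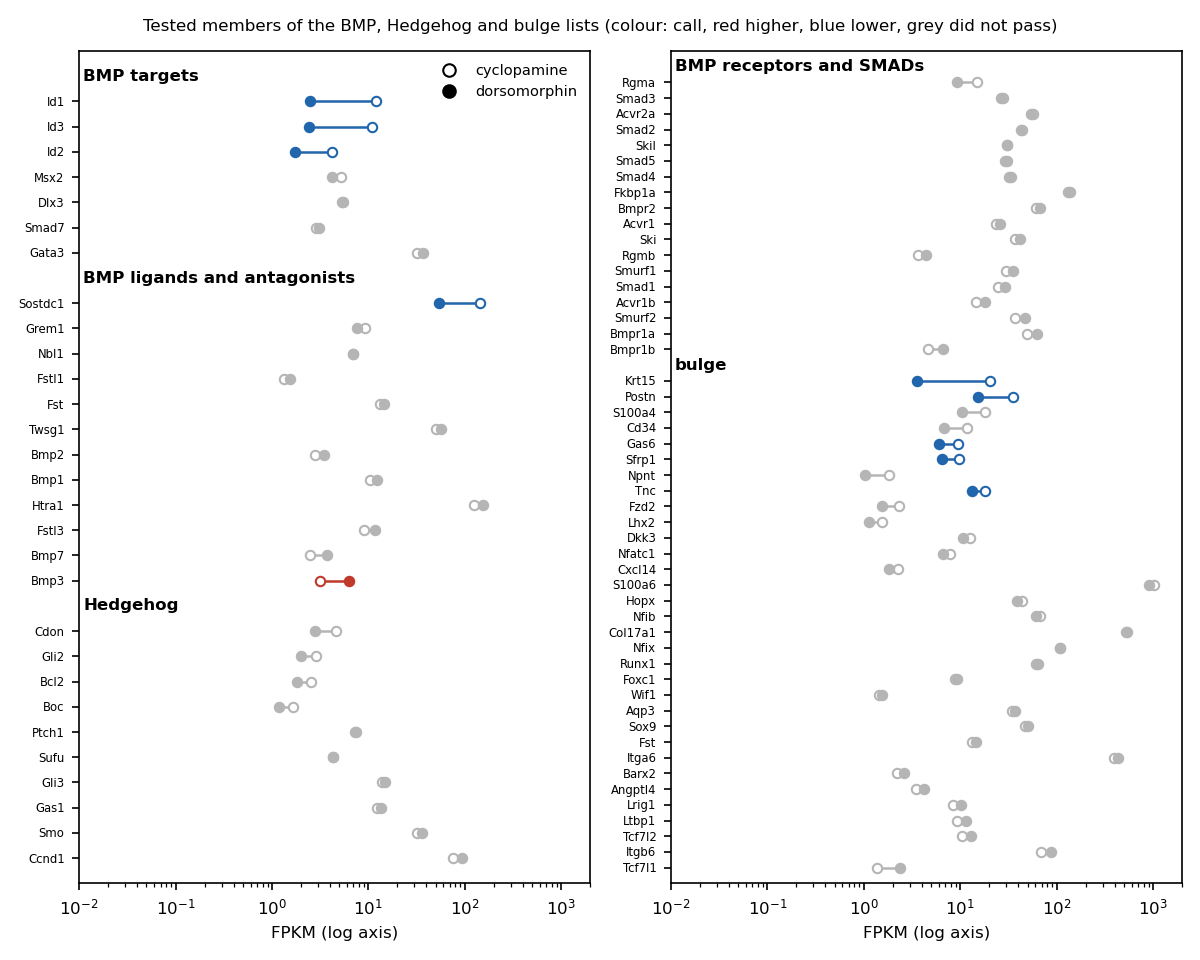
FPKM (log axis) of the tested members of the BMP, Hedgehog and bulge lists with cyclopamine (open circles) and dorsomorphin (filled circles), blue where lower and red where higher with dorsomorphin. Id1, Id3, Id2, Sostdc1, Krt15, Postn, Gas6, Sfrp1 and Tnc moved left and Bmp3 moved right; the receptors, SMADs and Hedgehog genes stayed grey.

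Some bulge stem cell genes were lower with dorsomorphin. Of 32 tested genes of the bulge list 5 were lower and none was higher (15.6% of the list lower, against 1.31% of all tested loci). Folds were below 0 for 18 of the 32, near the share of 52.99% over all tested loci. Krt15, the keratin used most as a bulge marker, had the largest fall: 20.6 to 3.61 FPKM, 5.71-fold (adjusted p = 0.00479). Postn, a matrix protein of the bulge, fell from 34.9 to 15.3 FPKM (adjusted p = 0.00479) and Tnc, another matrix protein, from 18.2 to 13.4 (adjusted p = 0.0428). Sfrp1, a secreted Wnt inhibitor, fell from 9.82 to 6.44 FPKM (adjusted p = 0.00859) and Gas6, a ligand of Tyro3, Axl and Mer receptors, from 9.46 to 5.999 (adjusted p = 0.0227). Cd34, the surface marker on which these cells are sorted, was at 11.7 and 6.87 FPKM and missed the threshold (adjusted p = 0.053). The bulge transcription factors did not pass: Sox9 was at 47.2 and 50.6 FPKM, Lhx2 at 1.54 and 1.14 and Tcf7l1 at 1.36 and 2.36. Lgr5 was too low to be tested, at 0.223 and 0.0491 FPKM.

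Other follicle genes followed no single direction. Krt75, a keratin of the companion layer, fell from 2.202 to 0.678 FPKM and Hoxc13, a regulator of hair keratins, from 6.34 to 3.24. Plet1, a marker of the follicle above the bulge, rose from 63.6 to 121 FPKM (adjusted p = 0.00479). Of the 18 tested genes of the basal epidermis list, Thbs1, an adhesive glycoprotein, was the only call (58.6 and 43.8 FPKM, adjusted p = 0.0438). Itga6, the integrin subunit of the sort, was at 390 and 436 FPKM and Col17a1 at 541 and 528, and neither passed.

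The sorted fractions of the same kind of culture gave values for these genes in libraries that the drug table does not share. The authors' deposited table of CD34+ against CD34neg fractions called 772 of 11370 tested loci (6.79%), 236 higher and 536 lower in the CD34+ fraction, and it was normalised separately. Of the 296 loci called between the drugs, 257 were tested there and 49 were called, which is 16.6% of the drug calls and 6.35% of the fraction calls. The directions matched in 32 of the 49, but in 8 of the 18 that had an adjusted p under 0.01 in both tables. Lower with dorsomorphin went with either direction between the fractions: of the 29 shared loci that were lower with dorsomorphin, 11 were higher and 18 lower in the CD34+ fraction. The 11 were Krt15, Postn, Id2, Sfrp1, Tnc, Thbs1, Timp3, Hoxc13, Tnfrsf11b, Cspg4 and Serpina3n. Krt15 was at 62.4 FPKM in the CD34+ and 10.7 in the CD34neg fraction, and Postn at 198 and 72.3. Id2 was at 17.1 and 7.63 FPKM (adjusted p = 0.024), while Id1 (20.4 and 16.7) and Id3 (13.2 and 9.005) did not pass between the fractions. Cd34 was at 38.7 and 2.26 FPKM there. Among the 20 shared loci that were higher with dorsomorphin, 14 were higher and 6 lower in the CD34+ fraction.

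**Figure D3:**
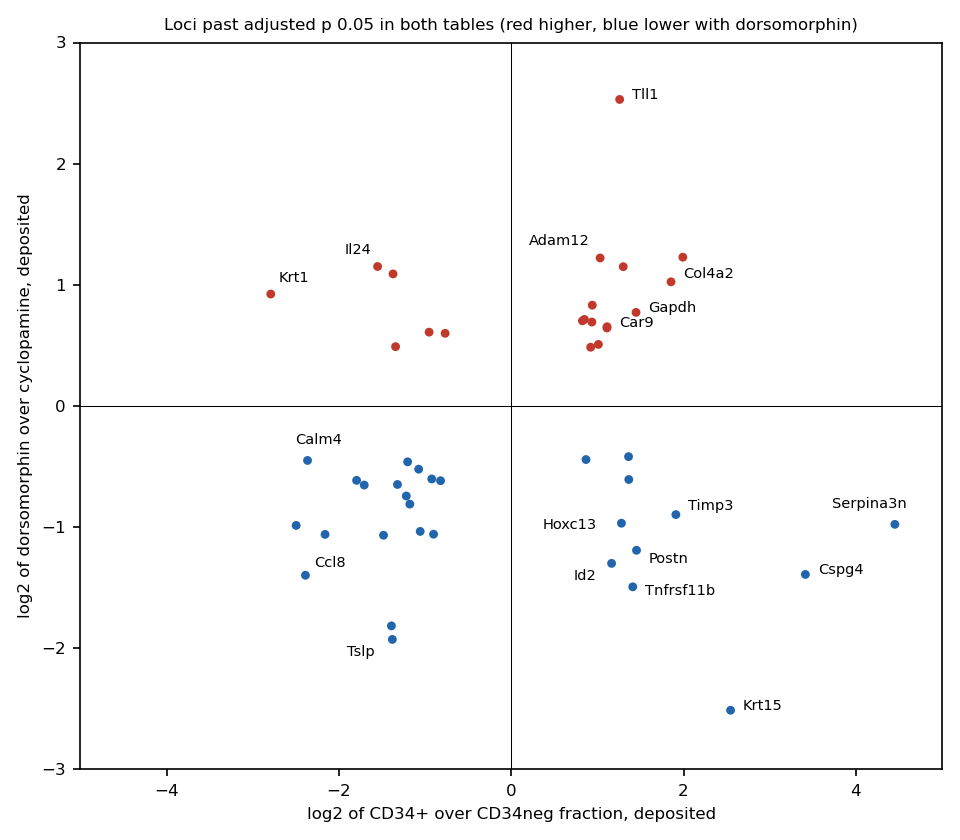
Deposited log2 folds of the 49 loci called in both tables, CD34+ over CD34neg fraction (horizontal) against dorsomorphin over cyclopamine (vertical), red where higher and blue where lower with dorsomorphin. Krt15, Postn, Id2, Cspg4 and Serpina3n sit at the lower right, Tslp, Ccl8 and Calm4 at the lower left, and 14 loci, Tll1, Gapdh and Col4a2 among them, at the upper right.

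Part of the cornified envelope genes, chiefly Lce and Flg loci, were lower with dorsomorphin. The epidermal differentiation complex is a gene cluster that encodes the proteins cross-linked into the outer shell of keratinocytes. Between S100a1 and S100a10 (chr3:90511034-93564643, GRCm38) 71 loci were tested, 19 were lower and none was higher, with folds below 0 for 56. Over all tested loci 1.31% were lower and 52.99% of folds were below 0. The region and its families were chosen after their values were seen. Ivl, the envelope precursor involucrin, fell from 43.1 to 24.5 FPKM (adjusted p = 0.00479). Of the 20 tested late cornified envelope (Lce) genes 10 were lower, and all 20 had folds below 0. Lce3b fell most of these, from 25.4 to 11.2 FPKM, Lce3c from 128 to 66.2 and Lce1a1 from 41.7 to 23.0. Crct1, at the end of the Lce genes, fell from 228 to 149 FPKM and Crnn, the envelope protein cornulin, from 5.43 to 1.52. Filaggrin, which bundles keratin filaments, is split over several loci of the name Flg. Of the 6 tested, 5 were lower, the most abundant from 140 to 71.1 FPKM (adjusted p = 0.00479). The calls were dense in the stretch from Lce1a1 to Crct1 (chr3:92646535-93015687), where 12 of 23 tested loci were lower. Lce and Flg loci are near copies of each other, so how the authors' counting split reads among them is uncertain.

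The rest of the same complex was not called. None of the 14 tested small proline-rich (Sprr) loci passed, and Sprr1a, the most abundant, was at 5122 and 4860 FPKM (adjusted p = 0.938). None of the 11 tested S100 loci passed, and S100a8 and S100a9, calcium-binding proteins of stressed skin, were at 66.2 and 58.8 and at 132 and 149 FPKM. Lor, the envelope protein loricrin, was low at 3.48 and 3.79 FPKM. Outside the complex, the transglutaminase Tgm3, which cross-links envelope proteins, fell from 10.4 to 7.10 FPKM (adjusted p = 0.0357) and the calmodulin-like Calm4 from 409 to 299 (adjusted p = 0.0305). Krt1, the keratin of the first suprabasal layer, went the other way, from 6.52 to 12.4 FPKM (adjusted p = 0.00479), while its partner Krt10 was at 2.89 and 3.62 and did not pass. Over the whole suprabasal and cornified envelope list, 11 of 38 tested loci were lower and 1 was higher (28.9% lower, against 1.31% of all tested loci). The loci of the name Flg were counted separately there, so 5 of the 11 are parts of 1 gene. Pou2f3, a transcription factor of differentiating keratinocytes, fell from 5.49 to 2.49 FPKM and Maf, another, rose from 15.5 to 22.8.

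**Figure D4:**
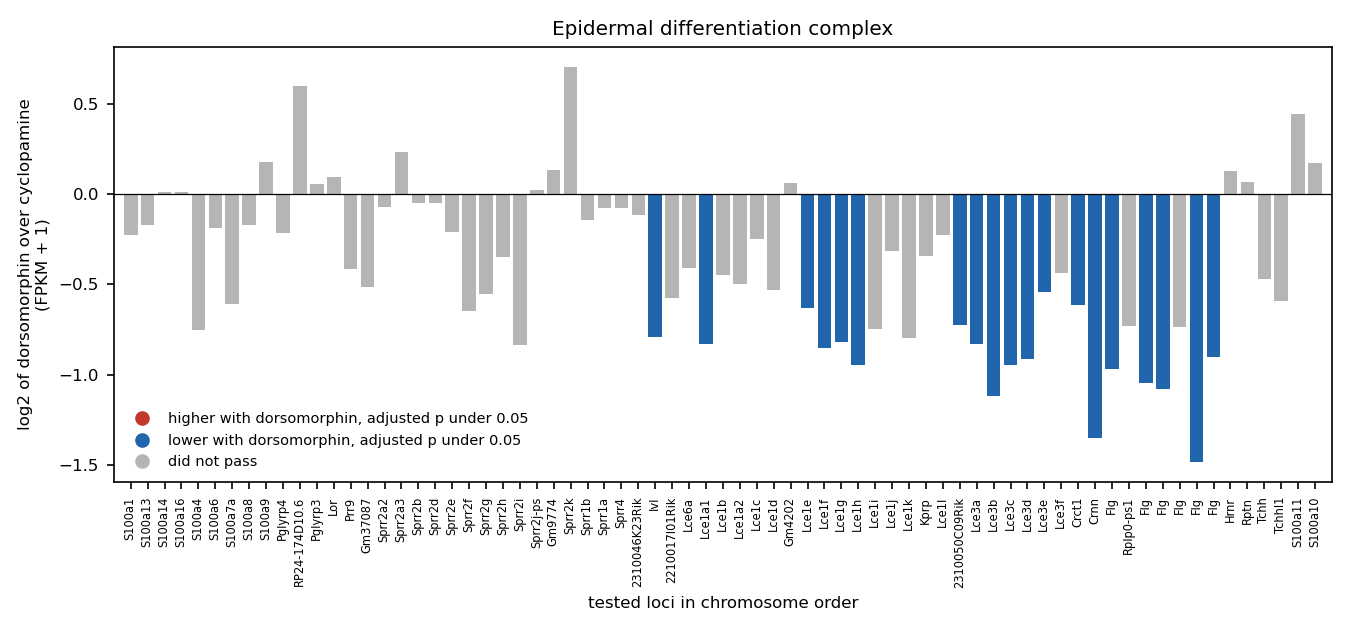
Difference between the drugs as the log2 of (FPKM + 1) with dorsomorphin over cyclopamine for the 71 tested loci of the epidermal differentiation complex in chromosome order, blue where called lower and grey where not called. The 19 called loci lie between Ivl and the Flg loci, and the Sprr and S100 loci are grey.

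Some hypoxia-response genes were higher with dorsomorphin. Of 42 tested members of the hypoxia and glycolysis list 11 were higher (26.2% of the list, against 1.26% of all tested loci) and none was lower. The list was chosen with earlier results of these data known and was not matched for level, so this excess was not tested. Folds were above 0 for 38 of the 42, against 47.0% of all tested loci, and the median log2 fold was 0.27 with a pseudocount of 1 FPKM. Adm, the secreted vasodilator adrenomedullin, rose from 2.92 to 7.48 FPKM, 2.56-fold (adjusted p = 0.00479). Pfkfb3, which makes the activator of phosphofructokinase, rose from 15.9 to 33.9 FPKM, and Car9, a carbonic anhydrase at the cell surface, from 25.1 to 39.4. The prolyl hydroxylases that mark hypoxia-inducible factors for breakdown rose as well, Egln3 from 199 to 338 FPKM (adjusted p = 0.00479) and Egln1 from 95.6 to 133 (adjusted p = 0.0143). P4ha1, a collagen prolyl hydroxylase, rose from 24.0 to 35.3 FPKM, Bnip3, a mitophagy receptor, from 104 to 152, and the Max partner Mxi1 from 14.5 to 21.2. Ero1l, an oxidase of protein folding, rose from 254 to 469 FPKM and the secreted Stc2 from 18.7 to 35.0.

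Most glycolytic enzymes did not pass. Gapdh was the exception among them, at 306 and 522 FPKM (1.71-fold, adjusted p = 0.0337). Its locus in the table spans 21227 bases and overlaps the gene Iffo1, and Gapdh has many processed copies in the genome, so its value is uncertain. Ldha was at 2035 and 2437 FPKM (adjusted p = 0.579), the glucose transporter Slc2a1 at 480 and 619 (adjusted p = 0.197) and Pgk1 at 514 and 478 (adjusted p = 0.85). Vegfa, the vessel growth factor, was at 177 and 248 FPKM and did not pass (adjusted p = 0.167).

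ACGTG is the core that hypoxia-inducible factors bind, and many other factors share it. It stood in 6 of the 10 matched promoters of the called hypoxia genes, in 10 of the 26 of the uncalled ones (38.5%) and in 23.2% of all 7836 matched promoters. It stood in 28.7% of the promoters of loci higher with dorsomorphin and in 14.95% of those of loci lower. CACGTG, which overlaps ACGTG on both strands, stood in 8.97% of all, 7.92% of higher and 8.41% of lower. The following 4 windows are shown because the genes rose together and hold the core on either strand, in capitals. The windows of Adm, Pgf, Mxi1, Stc2 and Gapdh did not hold these letters.
Car9 (chr4:43506776-43507025, plus strand): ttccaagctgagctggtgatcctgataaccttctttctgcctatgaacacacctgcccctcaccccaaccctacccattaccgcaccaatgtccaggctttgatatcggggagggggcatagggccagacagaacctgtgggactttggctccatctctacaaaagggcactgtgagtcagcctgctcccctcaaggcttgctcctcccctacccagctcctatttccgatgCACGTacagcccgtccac
P4ha1 (chr10:59323046-59323295, plus strand): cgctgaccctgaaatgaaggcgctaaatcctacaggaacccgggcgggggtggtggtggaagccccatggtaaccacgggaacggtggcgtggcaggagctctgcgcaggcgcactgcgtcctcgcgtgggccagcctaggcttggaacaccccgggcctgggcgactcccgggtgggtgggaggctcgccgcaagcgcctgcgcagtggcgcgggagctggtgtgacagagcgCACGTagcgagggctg
Pfkfb3 (chr2:11553930-11554179, minus strand): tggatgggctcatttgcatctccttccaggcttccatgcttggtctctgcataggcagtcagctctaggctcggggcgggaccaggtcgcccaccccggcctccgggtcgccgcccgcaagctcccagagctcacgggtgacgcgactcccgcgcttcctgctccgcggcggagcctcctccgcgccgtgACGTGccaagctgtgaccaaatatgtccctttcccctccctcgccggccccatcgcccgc
Egln3 (chr12:54203875-54204124, minus strand): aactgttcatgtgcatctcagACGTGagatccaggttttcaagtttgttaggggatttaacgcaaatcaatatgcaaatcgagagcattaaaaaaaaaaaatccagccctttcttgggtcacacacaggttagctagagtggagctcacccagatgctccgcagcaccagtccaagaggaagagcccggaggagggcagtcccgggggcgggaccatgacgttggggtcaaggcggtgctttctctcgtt
The match begins 18 bases before the start in Car9, 16 in P4ha1, 60 in Pfkfb3 and 229 in Egln3.

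The largest rises included growth factor and acute-phase genes. Pgf, placental growth factor of the Vegf family, rose from 2.57 to 16.5 FPKM, 6.41-fold (adjusted p = 0.00479). Saa3, an acute-phase protein, rose from 1.91 to 13.02 FPKM (adjusted p = 0.0247) and Thbd, the surface receptor thrombomodulin, from 1.82 to 5.36 (adjusted p = 0.00479). Tll1, a protease that can free BMPs from the antagonist chordin, rose from 0.772 to 4.46 FPKM (adjusted p = 0.00479); it lies below the level set for naming genes and was chosen after its value was seen. Il24, a cytokine of wounded epidermis, rose from 28.0 to 62.2 FPKM and Adora2b, an adenosine receptor, from 2.58 to 5.797. Of these 6 genes 5 stood under 3 FPKM with cyclopamine, where a small change in the lower value moves the fold a good deal.

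The EGF receptor ligands Tgfa, Epgn and Ereg rose with dorsomorphin. Of 14 tested members of that family list 4 were higher (28.6%, against 1.26% of all tested loci) and none was lower. Folds were above 0 for 13 of the 14, against 47.0% of all tested loci. Tgfa rose from 43.9 to 71.4 FPKM (adjusted p = 0.00479), Epgn from 150 to 208 (adjusted p = 0.017) and Ereg from 1.54 to 3.11 (adjusted p = 0.0115). The neighbouring ligand Areg was at 6.32 and 9.74 FPKM and did not pass (adjusted p = 0.207). Dusp6, a phosphatase that limits ERK and is induced by it, rose from 10.3 to 18.3 FPKM (adjusted p = 0.00479). It is counted among the 4 calls of the list, though it is neither a ligand nor a receptor. The receptor genes Egfr (34.3 and 37.4 FPKM) and Erbb2 (12.3 and 12.3) did not pass.

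Proteases of matrix and their inhibitors changed in both directions. Of 19 tested members 6 were higher and 3 lower (31.6% and 15.8%, against 1.26% and 1.31% of all tested loci). The collagenase Mmp13 rose from 195 to 344 FPKM, the stromelysin Mmp3 from 44.6 to 62.7, the membrane protease Adam12 from 11.7 to 27.2 and the protease inhibitor Serpine2 from 8.55 to 18.03. Against these, Mmp10 fell from 28.8 to 20.1 FPKM, Adamts1 from 41.3 to 18.8 and the metalloprotease inhibitor Timp3 from 22.3 to 11.98. Timp3 lies inside a locus of 443772 bases that the table also gives to Syn3 (6.44 and 3.38 FPKM, not passed). Mmp3 and Mmp10 are neighbours among the tested loci of chromosome 9, with the untested Mmp1a between them, and were called in opposite directions. The wound keratins Krt6a (1726 and 1991 FPKM), Krt16 (807 and 732) and Krt17 (216 and 216) did not pass. In the list of wound and stress keratins and partners, 6 of 23 tested members were higher and 2 lower. These are 26.1% and 8.70%, against 1.26% and 1.31% of all tested loci. Folds were above 0 for 18 of the 23. The gap junction proteins Gja1 and Gjb2 rose from 118 to 188 and from 134 to 264 FPKM. Igfbp7, a secreted binding protein, rose from 105 to 210.

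The cytokine Tslp and the chemokines Ccl2, Ccl7 and Ccl8 were lower with dorsomorphin. Tslp, a cytokine that acts on dendritic cells and is made by keratinocytes, had the largest fall in FPKM of any named protein-coding gene, from 1543 to 405, 3.81-fold (adjusted p = 0.00479). Its locus in the table spans 202779 bases and is shared with Wdr36, which was at 29.6 and 27.8 FPKM and did not pass. Ccl2, which attracts monocytes, fell from 155 to 105 FPKM and Ccl7 beside it from 18.7 to 9.10. The third tested gene of that cluster, Ccl8, fell from 13.3 to 5.05. The chemokine and cytokine list does not hold all of these genes. Of its 19 tested genes 3 were lower (15.8%, against 1.31% of all tested loci), 1 was higher and 15 did not pass. Folds were below 0 for 17 of the 19, against 52.99% of all tested loci. Il1a, an alarm cytokine stored in keratinocytes, was the listed gene that was called higher, from 25.2 to 43.6 FPKM (adjusted p = 0.00479). The cytokine Il24 is not in the list and rose from 28.0 to 62.2 FPKM (adjusted p = 0.00479). Cxcl10 (10.1 and 7.03) and Tnf (13.5 and 12.5) did not pass.

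Small differences in 1 direction ran through several lists of which few members passed. Over all tested loci 47.0% of folds were above 0 and 52.99% below. For cholesterol synthesis 26 of 28 tested folds were below 0, with a median of -0.32, and 2 members were called lower. Hmgcs1, an early enzyme of the pathway, fell from 89.2 to 64.5 FPKM (adjusted p = 0.0208). Elovl6, a fatty acid elongase, fell from 26.0 to 14.9 FPKM and was the only call of 13 tested fatty acid genes. For mitosis (G2-M) 25 of 28 folds were above 0, with a median of 0.31, and Ccnb2, Ube2c and Ttk were called higher, at 15.1 and 23.0, at 68.3 and 97.0 and at 8.17 and 14.96 FPKM. The G1-S list had no call in 25 and a median of 0.01. The unfolded protein and amino acid stress list had 28 of 31 folds above 0 and a median of 0.27, with Herpud1 (33.4 and 56.4 FPKM) and Sesn2 (9.44 and 13.7) called higher. For cytosolic ribosomal proteins 30 of 31 folds were below 0, with a median of -0.20 and no call. Of 22 tested genes of AMPK and energy sensing, the other kinase that dorsomorphin inhibits, Sesn2 was the only call. With fewer than 4 calls each, these lists give directions of small differences and few tested changes.

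**Figure D5:**
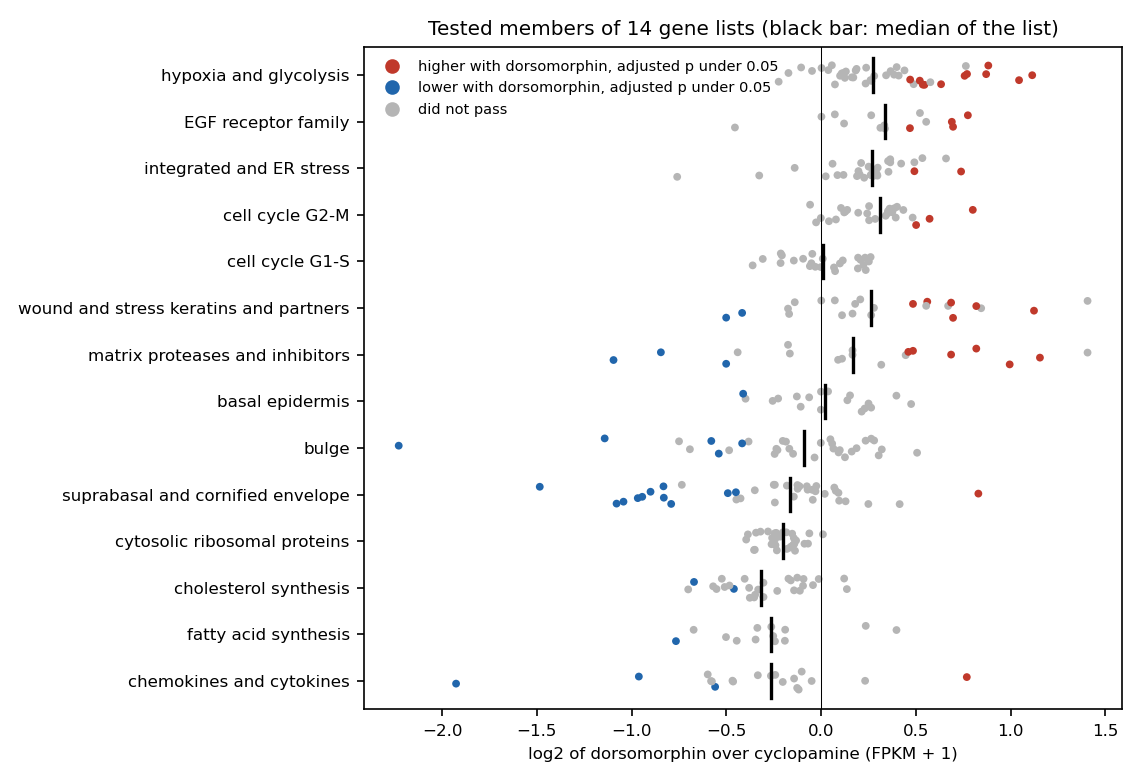
Difference between the drugs for the tested members of 14 gene lists, as the log2 of (FPKM + 1) with dorsomorphin over cyclopamine (horizontal), red where called higher, blue where called lower and grey where not called, with the median of a list as a black bar. The medians run from 0.33 for the EGF receptor family to -0.32 for cholesterol synthesis, and hypoxia and glycolysis has 11 red points and no blue ones.

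Markers of other cells gave few tested values. Of 13 fibroblast markers 2 were tested and none was called, and the summed level of all 13 was 18.6 and 30.6 FPKM, most of it Vim (14.0 and 21.9, not passed). The other tested one, Col3a1, was at 0.111 and 2.30 FPKM and did not pass (adjusted p = 0.429). Of 18 immune markers 2 were tested, and the summed level of all 18 was 37.9 and 45.6 FPKM. H2-Ab1, an MHC class II chain, rose from 9.65 to 17.9 FPKM. The other tested immune marker did not pass, with a log2 fold of -0.03 at a pseudocount of 1 FPKM. Most of the summed level in both groups lay in listed markers other than H2-Ab1. Ptprc was at 0 and 0.0409 FPKM and Cd207 was listed at 0. Gpnmb, listed as a melanocyte marker, fell from 185 to 92.4 FPKM, while the pigment genes Dct (0.0428 and 0.108), Pmel (0.168 and 0.148) and Sox10 (0 in both) were near 0. Cspg4, listed as a mural marker, fell from 1.90 to 0.723 FPKM, and Cdh5 was listed at 0. The part of other cells in the results above was not tested.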

How the data were processed

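RNA of 3C cultures was sequenced from polyadenylated RNA with a directional kit, per the labels' protocols. Per the submitters' processing notes, the tools behind these libraries were TopHat2 2.0.13 (build GRCm38), DESeq2 1.8.1, FastQC 0.11.2, cutadapt 1.5 and, from Subread 1.4.2, featureCounts, whereas the deposited table has the layout of a Cuffdiff gene table. Which tool made its values is therefore not settled. The FPKM values are the authors' estimates, 1 per locus and group, and their unit is read from that layout. The log2 ratios, p-values and q-values (adjusted p) were also deposited by the authors. The test statistic, a score deposited by the authors, was not printed. The q-values could be made again from the p-values by the Benjamini-Hochberg method to within 5.22e-07, after 879 repeated rows were left out of 12384 tested ones.

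No test was made here: with 1 value per group, each call is that of the authors at an adjusted p under 0.05, and the tests planned per library, with leave-one-out and the replicate block, could not be made. Medians of gene lists used log2(FPKM + 1), which understates the folds of low genes. The 55 lists hold 1121 genes, and the members and lists were chosen with earlier results of these data known. Named genes were the markers Id1, Id3, Krt15 and Adm and the tested BMP, Hedgehog and bulge genes. The 15 largest called folds per direction with at least 5 FPKM in the higher drug were added. These left out predicted genes, pseudogenes, mitochondrial genes, Xist and Y-linked genes, while other X-linked genes were kept. The rule also took the 10 largest differences in FPKM among called loci, and up to 6 called members of each other list with 3 or more. Some genes that the rule selects are given only in counts. Other named genes (those of the differentiation complex and of gene families, and Tll1) were chosen after their values were seen. The column 3C_HFSC of the fraction table was read as CD34+. Loci were set beside GENCODE vM21, where 288 of the 296 called symbols were found and 162 had the same ends. Alternatives were a stricter adjusted p, a fold minimum, FPKM minimums, other pseudocounts, every row counted, non-overlapping loci, Bonferroni adjustment and subtraction of the median fold. Python 3.11.15, pandas 2.3.3 and numpy 2.4.6 were used, and the adjustment and counting steps were tested on simulated data.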

Additional observations from a re-analysis of the deposited data

How the results depend on the processing

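The count of 296 called loci (145 higher, 151 lower) came to 134 (68 higher, 66 lower) at an adjusted p under 0.01 and to 87 (32 higher, 55 lower) with a fold of at least 2. Over loci of 1 name that overlap no other locus, 204 were called, 93 higher and 111 lower. Bonferroni adjustment of the authors' deposited p-values left 0 calls in either direction, because their smallest value, 5e-05, is held by 120 loci and fails at this number of tests, while 1452 loci had an unadjusted p under 0.05. With the larger FPKM minimum or every row counted, the counts stayed within 1.5 times. The other settings left the counts as they were and are no checks of them. The minimum of 1 FPKM removed no tested locus. The adjusted p made again used the same p-values and differed from the deposited one by at most 5.22e-07. Subtracting the median fold leaves each adjusted p as it is and is too small to turn a called fold. No named called fold changed sign, over 113 loci, with a pseudocount of 1 FPKM or the median of -0.02 subtracted. Neither setting could change a sign, so this tests nothing. A pseudocount keeps the order of the 2 values, and the smallest called log2 fold was 0.41 in size. Of 47 list medians, subtracting the median of all loci changed the sign of 1 and moved 14 by over 1.5 times, all of them near 0. Other pseudocounts moved none that far. The minimum of 1 FPKM left out no tested locus, so it could not move a list median. Of the 49 loci called in both the drug and the fraction table, 32 shared a direction and 17 did not. These became 8 and 10 of 18 at an adjusted p under 0.01 in both, and 11 and 7 of 18 with a fold of at least 2 in both. No paired analysis was possible because the tables hold 1 value per group, and leaving out a replicate could not be run for the same reason. Depth per library is unknown, so low loci that were not tested cannot be read as absent.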

Other observations

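Several gene families whose members lie side by side held more than 1 call in the authors' deposited table. They were chosen after their values were seen, and other families had calls in both directions: of 14 tested Krt loci 1 was higher and 2 were lower, and of 18 tested Dusp loci 2 were higher and 1 was lower. Of 7 tested stefin genes, which encode inhibitors of cysteine proteases, Stfa3 fell from 1986 to 1262 FPKM and BC117090 from 24.7 to 9.07, while Stfa2 was at 31.7 and 48.6 and did not pass. Skint1 and Skint7, of a family that selects skin gamma-delta T cells, fell from 19.996 to 9.53 and from 3.12 to 1.19 FPKM, while Skint3 (8.62 and 8.67) and Skint4 (14.3 and 14.2) did not pass. The serine protease inhibitors Serpina3g and Serpina3n fell from 5.798 to 2.11 and from 4.52 to 2.29 FPKM. Tgm6 fell beside Tgm3, from 2.23 to 0.827. Basement membrane collagens Col4a1 and Col4a2, which share a locus in the table, rose from 1.61 to 3.58 and from 3.11 to 6.31 FPKM. Members of these families share sequence, so how reads were split among them is uncertain.

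Regulators outside the lists above were also called. The transcription factors Snai2, Klf5 and Klf6 rose from 189 to 309, from 99.4 to 143 and from 108 to 172 FPKM, and Fosl1, a subunit of AP-1, from 18.1 to 27.5. Snai2 and Klf5 were chosen after their values were seen. Dusp1 and Btg2, early response genes, fell from 47.0 to 33.6 and from 10.0 to 5.92 FPKM, while Gadd45a rose from 9.38 to 17.9. Wnt4 rose from 11.3 to 17.2 FPKM. The smooth muscle actin gene Acta2 rose from 3.14 to 6.95 and Itga5, a fibronectin receptor subunit, from 12.4 to 18.8. The matrix proteins Spp1 and Col12a1 fell from 94.7 to 60.9 and from 78.4 to 55.2 FPKM. The detoxifying enzymes Aldh3a1 and Srxn1 fell from 8.68 to 4.18 and from 10.1 to 6.10. Other large falls were in Adamtsl5 (25.4 and 8.18 FPKM), Dpp7 (9.06 and 3.34) and Dguok (7.01 and 2.69), and other large rises in Prl8a9 (34.5 and 73.4), Sema6d (3.41 and 7.96), Morc4 (8.47 and 18.3) and Htr1b (2.70 and 6.76).

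The locus that the table names 4631405K08Rik,Mir205 was lower with dorsomorphin, at 11.3 and 5.41 FPKM (adjusted p = 0.0268), and was chosen after its value was seen. It hosts miR-205, a microRNA abundant in epidermis. The libraries measured long polyadenylated RNA, so the mature microRNA was not measured. Its sequence from RefSeq (GRCm38.p6, chr1:193507503-193507524, minus strand) is shown with the seed, bases 2 to 8, in capitals.
miR-205-5p: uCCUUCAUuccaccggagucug

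The largest finite folds among called loci were in processed copies of ribosomal protein genes, which differ little from their parents. Rpl7a-ps11 was at 846 FPKM with cyclopamine and 24.7 with dorsomorphin, while Rpl7a was at 333 and 467 and was called higher. Rpl17-ps8 was at 1.87 and 74.8 FPKM, while Rpl17 was at 452 and 420 and did not pass. How reads were assigned between copy and parent was not tested. The locus of Rpl17-ps8 spans 268308 bases and overlaps Heph and Hsf3. The mitochondrial rRNA mt-Rnr1 was listed at 31632 FPKM with cyclopamine and at 0 with dorsomorphin, with a status that marks too little or too complex data, and it entered no count here.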
